A study of Homo sapiens with 3 samples.

Results

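The HOX cluster genes were the 39 rows, of 23131 in the deposited table, whose symbol is HOXA, HOXB, HOXC or HOXD followed by a number. There were 11 *HOXA*, 10 *HOXB*, 9 *HOXC* and 9 *HOXD* genes. The rule goes by symbol and uses no measured value, but it was set with earlier results of these data known. They were measured by RNA sequencing in HCT-116, a colon carcinoma cell line whose labels give it wild-type APC and a CTNNB1ΔSer45 β-catenin, a form that resists the degradation that APC promotes. One culture received a pool of anti-*APC* siRNA in 2 transfections on consecutive days, another received a pool of scrambled siRNA, and the remaining one is called untransfected in its title and reagent-only (mock) in its treatment label. All were harvested 48 hours after the second transfection. The series has 3 libraries, 1 for each condition, and the 2 analysed here are anti-*APC* siRNA and untransfected. The scrambled library was not analysed here, so the 2 libraries used cannot tell an effect of siRNA delivery from one of *APC* silencing in any ratio below. The paper's supplement lists scrambled siRNA over untransfected for some genes. Of genes named below these include *AXIN2* and *KDM6B*, both close to the untransfected level, and no HOX gene. With 1 library per condition there was no replicate check and no test. The line is a carcinoma line with an activated Wnt pathway before any siRNA, and it stands for no normal colon cell.

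HOX genes encode homeodomain transcription factors that give cells their position along the head-to-tail axis. They lie in 4 clusters, and members of the same number in different clusters (a paralogue group) descend from 1 ancestral gene. Within a cluster, low numbers are the anterior end, switched on early and toward the head, and high numbers are the posterior end. Polycomb proteins keep the clusters silent through methylation of histone H3 at lysine 27, Trithorax proteins oppose them, CDX factors act upstream in the hindgut and posterior body, and PBX and MEIS proteins bind DNA beside HOX proteins. The adult colon retains HOX expression, which makes a colon line a place where several clusters can be read at once.

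Values are FPKM, which count fragments relative to transcript length and sequencing depth, so they are per length and can be compared between genes. The ratio is anti-*APC* siRNA over untransfected, as log2 without a pseudocount, for genes above 0 in both libraries. From the values of the lowest rows, 1 read was worth 1.10 times as much FPKM in the anti-*APC* library as in the untransfected one, and the depths came to about 23400000 and 25600000 reads. The reads behind each gene and a 95% counting interval (Clopper-Pearson) of its log2 ratio were estimated from these depths and the transcript length. The intervals cover counting error only and rest on the lengths used. *APC* itself stood at 3.43 FPKM with anti-*APC* siRNA and 9.15 FPKM untransfected (log2 -1.41), *AXIN2*, a Wnt target and feedback inhibitor, at 28.7 and 4.11 FPKM (log2 2.81), and *CTNNB1* at 178 and 177 FPKM. Of 10 colon epithelium markers, 6 reached 1 FPKM in both libraries, with a summed level of 1295 FPKM in the anti-*APC* library and 1650 in the untransfected one. *CDX1* and *VIL1* were at 0 in the untransfected library, and *KRT20* and *CDH17* were below 1 FPKM in both. None of 4 leukocyte or 4 endothelial markers and 1 of 4 fibroblast markers (*COL1A1*, 3.08 and 2.85 FPKM) reached 1 FPKM in both. A lower level per cell and a lower share of cells carrying a transcript cannot be told apart in bulk RNA.

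Sequences of 2 kinds are shown: the stretches before the starts of the *HOXA* genes that moved furthest or were most abundant and before the start that *HOXC4* and *HOXC5* share, and the cluster microRNAs with their site in a HOX transcript. The stretches come from RefSeq starts, placed by exact match on GRCh37 (hg19), and are printed 5′ to 3′ on the gene's strand. The stretch of *HOXC4* and *HOXC5* is cut to the 220 bases that lie before their listed locus. Capitals mark CATAAA, the reverse complement of the CDX motif TTTATG.
HOXA9, minus strand, chr7:27205157-27205406: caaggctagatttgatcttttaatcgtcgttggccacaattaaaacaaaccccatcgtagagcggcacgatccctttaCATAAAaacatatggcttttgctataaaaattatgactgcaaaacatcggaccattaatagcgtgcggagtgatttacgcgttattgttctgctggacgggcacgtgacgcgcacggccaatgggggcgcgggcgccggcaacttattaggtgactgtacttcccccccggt
HOXA4, minus strand, chr7:27170377-27170626: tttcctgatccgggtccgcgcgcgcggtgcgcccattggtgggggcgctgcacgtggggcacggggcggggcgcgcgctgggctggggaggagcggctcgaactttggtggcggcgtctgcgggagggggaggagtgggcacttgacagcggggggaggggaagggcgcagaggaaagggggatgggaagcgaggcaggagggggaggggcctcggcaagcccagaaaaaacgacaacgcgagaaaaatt
HOXA6, minus strand, chr7:27187394-27187643: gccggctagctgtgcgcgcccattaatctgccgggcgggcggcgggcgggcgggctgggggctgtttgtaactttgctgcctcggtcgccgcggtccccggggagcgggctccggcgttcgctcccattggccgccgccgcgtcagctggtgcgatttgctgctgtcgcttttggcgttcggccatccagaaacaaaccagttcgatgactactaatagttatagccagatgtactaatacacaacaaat
HOXC4 and HOXC5, plus strand, chr12:54410422-54410641: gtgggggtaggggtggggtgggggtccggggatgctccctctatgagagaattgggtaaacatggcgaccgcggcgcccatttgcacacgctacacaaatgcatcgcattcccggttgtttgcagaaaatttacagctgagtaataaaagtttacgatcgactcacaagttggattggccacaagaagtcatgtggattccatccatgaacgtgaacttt

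The set of RefSeq starts used here matched 20 of the 39 genes, in 27 windows of the 250 bases before a start. The other HOX genes had no window in that set and are missing from the motif and CpG values. The motifs searched were 3, read on both strands: the TCF7L2 letters AACAAAG or ATCAAAG or TACAAAG or TTCAAAG, the AP-1 letters TGACTCA or TGAGTCA, and the CDX letters TTTATG. The TCF7L2 letters were in 11.96% of all 35116 windows and in 3 of the 27 HOX windows (*HOXA11*, *HOXB1* and *HOXD12*). The AP-1 letters were in 4.20% of all windows and in 0 HOX windows. The CDX letters were in 9.64% of all windows and in 3 HOX windows (*HOXA3*, *HOXA9* and *HOXD8*). The shares were 11.1% of HOX windows for both TCF7L2 and CDX, close to those of all windows. HOX windows were alike in GC content to all windows (medians of 58.8% and 58%) but held more CpG pairs, with a median of 19 against 11. The windows of HOX genes below the level filter had a median of 18.5 CpG pairs and those above it 19.

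The cluster microRNAs *MIR196A1*, *MIR196A2* and *MIR196B* give mature 5p strands with 1 seed (bases 2 to 8, in capitals). In the HOX transcript site, capitals mark bases that pair with miR-196a-5p by Watson-Crick rules, and the lower-case base pairs as G with U.
miR-196a-5p: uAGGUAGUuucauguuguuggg
miR-196b-5p: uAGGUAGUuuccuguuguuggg
Site in HOXB8, minus strand, chr17:46690132-46690153: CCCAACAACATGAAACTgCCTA
Of 39 canonical HOX transcripts (GENCODE 44), 10 held a match to the seed. *HOXB8* was not among these 10, but it was the 1 with a site of at most 2 mismatches to either microRNA. It paired at 21 bases with miR-196a-5p and had 2 mismatches to miR-196b-5p, whereas the best site in any other transcript had 7 or more. The rows of *MIR196B* and *MIR196A1* stood at 223 and 125 FPKM with anti-*APC* siRNA and 195.9 and 107 FPKM untransfected (log2 0.19 and 0.22), and the other 4 cluster microRNAs were at 0 in both. These rows are very short, so a few reads give a large FPKM, and *MIR196B* lies wholly within exonic bases of *HOXA9*. The library kit reads long RNA, and the mature microRNAs were not measured.

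Of the 39 genes, 24 had at least 1 FPKM in both libraries, a share to be read against 51.1% of all rows in the table. By cluster these were 10 of 11 *HOXA*, 8 of 10 *HOXB*, 5 of 9 *HOXC* and 1 of 9 *HOXD* genes. By position they were 3 of 8 anterior genes (groups 1 to 3), 12 of 15 central genes (groups 4 to 8) and 9 of 16 posterior genes (groups 9 to 13). *HOXA* supplied 51.2% of the summed HOX FPKM of untransfected cells, *HOXB* 41.5%, *HOXC* 5.79% and *HOXD* 1.52%. The 5 highest genes by the mean of both libraries were *HOXA9*, *HOXB7*, *HOXA10*, *HOXB8* and *HOXB9*, in that order. Levels were therefore highest in the middle of *HOXB* and just posterior of the middle of *HOXA*. Both ends of each cluster were lower than these peaks, but the fall from gene to gene was not steady.

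**Figure D1:**
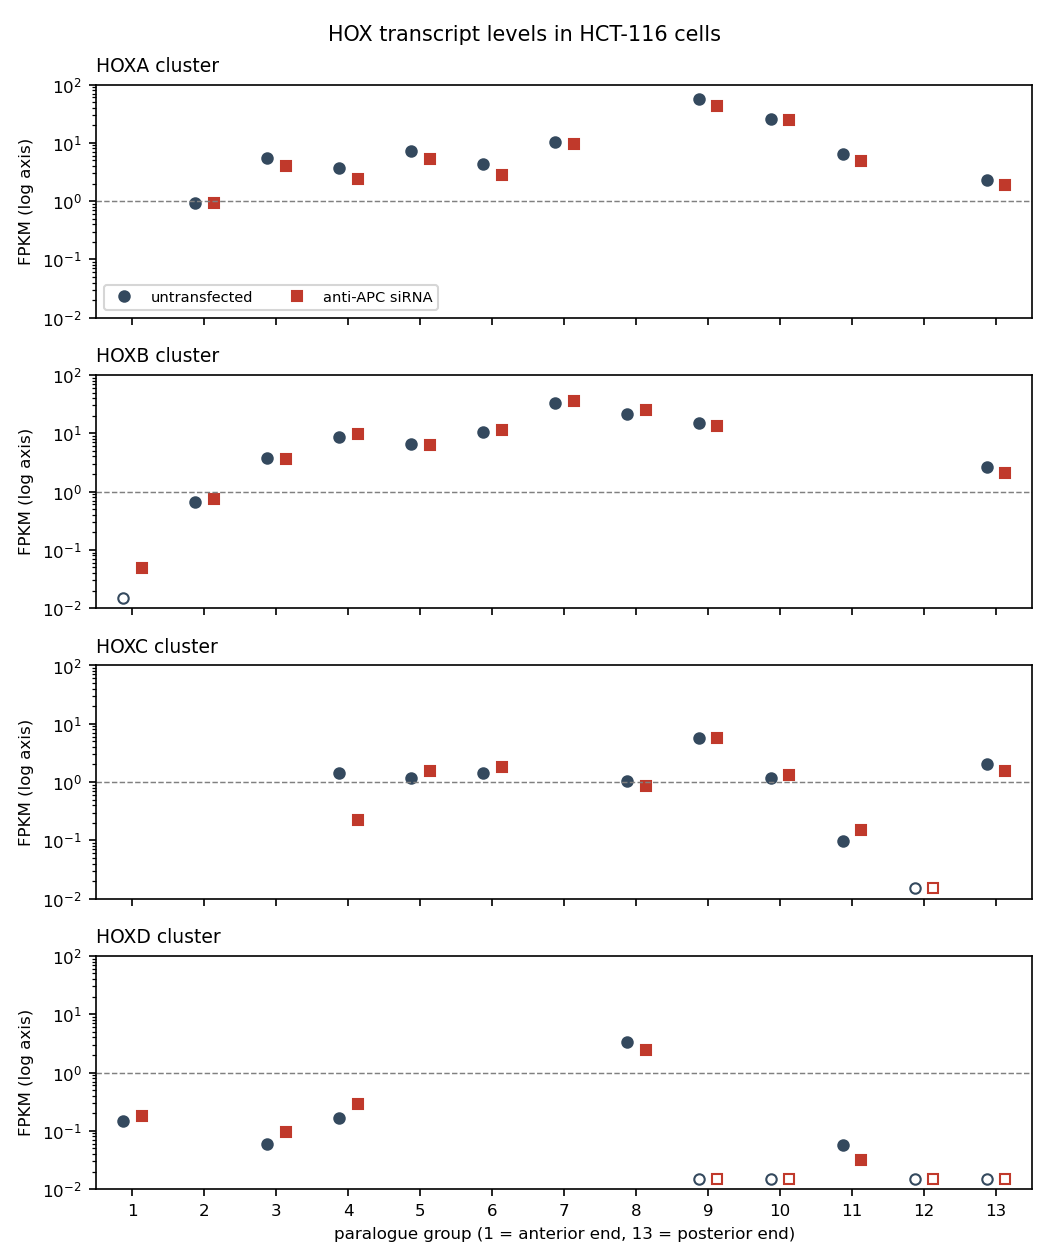
FPKM (log axis) of the HOX genes reported here, by paralogue group in the 4 clusters, with circles for untransfected cells and squares for anti-*APC* siRNA. Open symbols at the base are genes at 0, and the dashed line is 1 FPKM; *HOXA* and *HOXB* peak at groups 9 and 7, and *HOXD8* is the 1 *HOXD* gene above the line.

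In *HOXA*, *HOXA9*, a posterior homeodomain factor also known from leukaemia, was the most abundant HOX gene, at 42.1 FPKM with anti-*APC* siRNA and 56.6 FPKM untransfected. Its neighbour *HOXA10* followed at 24.5 and 25.1 FPKM. The central *HOXA7* stood at 9.43 and 10.3 FPKM. *HOXA9* was lower with anti-*APC* siRNA by more than counting error, and the other 2 were not.
*HOXA5*, known as a factor of lung and gut differentiation, was at 5.29 and 7.09 FPKM. The posterior *HOXA11*, a gene of limb and uterus development, was at 4.95 and 6.47 FPKM, and *HOXA3*, a gene of the pharyngeal arches, at 3.93 and 5.52 FPKM. All 3 were lower with anti-*APC* siRNA.
*HOXA4* was at 2.39 and 3.63 FPKM, *HOXA6* at 2.75 and 4.38 FPKM, and *HOXA13*, the last gene of the cluster and a marker of the hindgut end, at 1.90 and 2.33 FPKM. *HOXA2* had 0.932 and 0.942 FPKM and stayed under the filter.

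In *HOXB*, *HOXB7* was at 35.3 FPKM with anti-*APC* siRNA and 32.6 FPKM untransfected, and *HOXB8* at 25.2 and 21.0 FPKM. *HOXB9* was at 13.4 and 15.0 FPKM, and *HOXB6* at 11.4 and 10.6 FPKM. These 4 adjoining genes hold most of the cluster's sum. *HOXB4*, known for its use in expanding blood stem cells, was at 9.58 and 8.61 FPKM. *HOXB5* was at 6.22 and 6.64 FPKM, *HOXB3* at 3.68 and 3.80 FPKM, and *HOXB13*, a gene of the prostate and distal colon that lies apart from the rest of its cluster, at 2.07 and 2.66 FPKM. The 2 anterior genes were low: *HOXB2* had 0.737 and 0.673 FPKM, or 28 estimated reads in each library, and *HOXB1* 0.0489 FPKM (1 read) and 0. For *HOXB1*, 3 reads would be 0.116 FPKM untransfected, and a value up to that level cannot be told from 0.

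In *HOXC*, *HOXC9* was highest at 5.60 FPKM with anti-*APC* siRNA and 5.74 FPKM untransfected. *HOXC6*, a central gene, was at 1.84 and 1.46 FPKM, *HOXC5* at 1.57 and 1.18 FPKM, *HOXC13*, a hair and nail gene, at 1.55 and 2.06 FPKM, and *HOXC10* at 1.31 and 1.15 FPKM. *HOXC8* had 0.856 and 1.04 FPKM. *HOXC4* had 0.222 and 1.45 FPKM, the largest relative difference among HOX genes with a mean of at least 0.5 FPKM. *HOXC11* had 0.151 and 0.0987 FPKM, which came to 7 and 5 reads, and *HOXC12* was at 0 in both libraries.

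In *HOXD*, *HOXD8* was the 1 gene above 1 FPKM, at 2.47 FPKM with anti-*APC* siRNA and 3.28 FPKM untransfected. *HOXD4* had 0.290 and 0.166 FPKM, or 8 and 5 reads. *HOXD1* had 0.178 and 0.146 FPKM, *HOXD3* 0.0946 and 0.0605 FPKM, and *HOXD11* 0.0315 and 0.0575 FPKM, or 1 and 2 reads. *HOXD9*, *HOXD10*, *HOXD12* and *HOXD13*, posterior genes that pattern the limb, were at 0 in both libraries. A count of 0 allows up to 3 reads, which for *HOXD10* would be 0.0720 FPKM in the anti-*APC* library. Ratios of these low genes rest on a handful of reads and are given as values only.

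Against untransfected cells, 0 of the 24 HOX genes with a mean of at least 1 FPKM were at least 1.5-fold higher with anti-*APC* siRNA, where 2.56% of all 12063 such rows were. Those at least 1.5-fold lower were 2, *HOXA4* by 1.52-fold (log2 -0.60, interval -0.99 to -0.23) and *HOXA6* by 1.59-fold (log2 -0.67, interval -1.13 to -0.21), where 6.61% of all rows were. Counts of 0 and 2 among 24 genes do not stand apart from these shares. Just outside that limit, *HOXA3* had a log2 ratio of -0.49. The median log2 ratio of the 24 was -0.11, with a range of -0.67 to 0.41, beside -0.05 for all rows. Below 0 were 16 of the 24, where 58.6% of all rows were, and 13 were below the median of all rows. The counting interval left out 0 in 10 of the 24, a smaller share than the 59.6% of all 9998 rows with a known transcript length. It lay wholly below 0 in 9 of the 24, where 36% of those rows did, so an interval that leaves out 0 does not set a gene apart in this comparison.

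**Figure D2:**
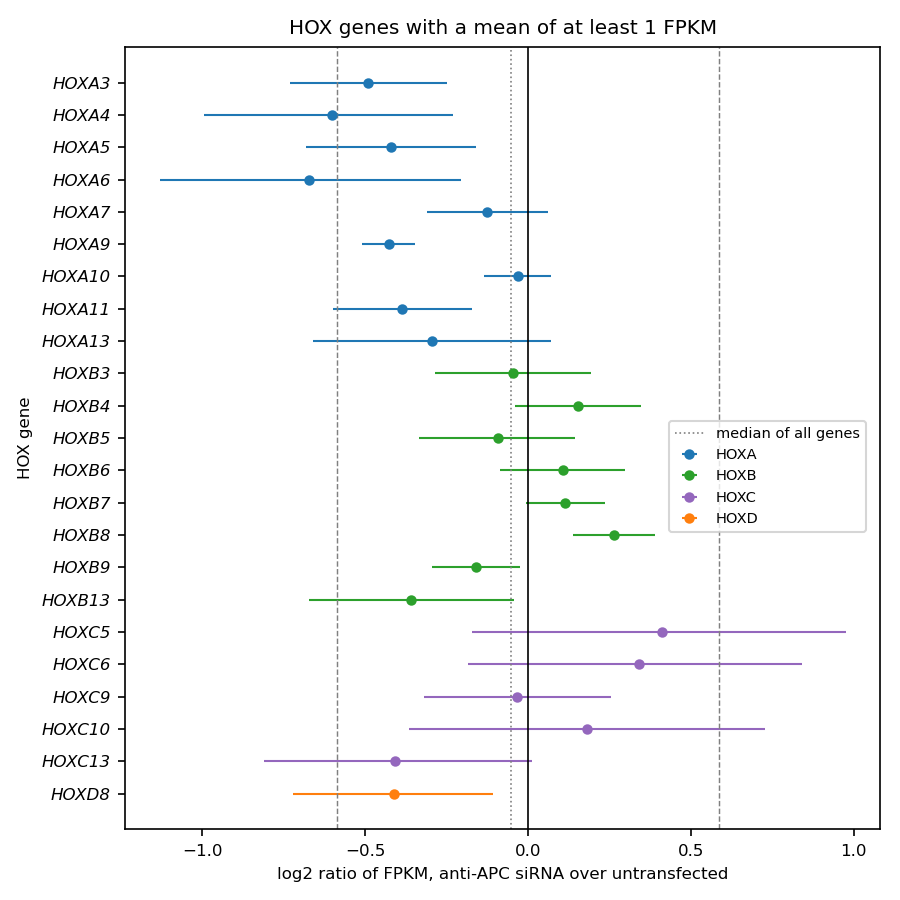
Log2 ratio of FPKM (anti-*APC* siRNA over untransfected) of the HOX genes reported here with a mean of at least 1 FPKM, with 95% counting intervals and colours for the clusters. Dashed lines mark 1.5-fold and the dotted line the median of all genes; the *HOXA* genes drawn lie below 0, while *HOXB* genes lie on both sides.

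The 4 clusters are taken in turn. In *HOXA*, 9 of 10 genes were below 0, with a median log2 ratio of -0.40, and 8 of 10 were below the median of all rows. The interval left out 0 in 6 of the 10, all of them below 0, a share like the 59.6% of all rows. *HOXA9*, with 2027 and 2987 estimated reads, had the narrowest of these (log2 -0.43, interval -0.51 to -0.35), and *HOXA10* beside it was at -0.03 (interval -0.13 to 0.07). In *HOXB*, 4 genes were above 0 and 4 below, with a median of 0.03. *HOXB8* was above 0 by more than counting error (log2 0.26, interval 0.14 to 0.39), and *HOXB9* (log2 -0.16, interval -0.30 to -0.02) and *HOXB13* (log2 -0.36, interval -0.67 to -0.04) were below it. In *HOXC*, 3 of 5 were above 0 and 2 below, and no interval left out 0. *HOXD8*, the 1 gene of its cluster here, was at -0.41 (interval -0.72 to -0.11).

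Summed over all members, *HOXA* stood at 102 FPKM with anti-*APC* siRNA and 125 FPKM untransfected (log2 -0.30). *HOXB* stood at 108 and 102 FPKM (log2 0.08). *HOXC* stood at 13.1 and 14.2 FPKM (log2 -0.11), and *HOXD* at 3.06 and 3.71 FPKM (log2 -0.28). *HOXA* therefore held 45.1% of the summed HOX FPKM with anti-*APC* siRNA, and *HOXB* 47.7%, so the order of the 2 clusters was the opposite of that in untransfected cells. How far such sums vary between cultures could not be read from 1 library each.

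By position, central genes summed to 115 and 113 FPKM (log2 0.02), with 6 of 12 above 0 and 6 below, and anterior genes to 13.3 and 14.2 FPKM. Posterior genes summed to 97.6 and 117 FPKM (log2 -0.26), with 8 of 9 below 0, where 58.6% of all rows were, and a median log2 ratio of -0.29. Relative to the median of all rows, 6 of the 9 were lower. Of the central genes, all 4 in *HOXA* were below 0 and 4 of 5 in *HOXB* were above it. Both posterior *HOXB* genes and all 4 posterior *HOXA* genes were below 0, and 3 of those 4, without *HOXA10*, were below the median of all rows.

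Genes outside the clusters give a measure of the regions around them. *HIBADH* and *SKAP2*, which flank *HOXA*, stood at 17.9 and 16.4 FPKM with anti-*APC* siRNA and 23.1 and 20.2 FPKM untransfected (log2 -0.37 and -0.30), close to the *HOXA* median. *SKAP1*, which flanks *HOXB*, stood at 6.14 and 6.04 FPKM (log2 0.02). The most abundant flanking gene, *ATP5G2* beside *HOXC*, stood at 87.6 and 117 FPKM (log2 -0.42), while *CALCOCO1*, *SMUG1* and *CBX5* on the same flanks were at log2 0.01, -0.03 and -0.12. *MTX2* and *KIAA1715*, which flank *HOXD*, were at log2 -0.12 and -0.13, whereas *HOXD8* was at -0.41. Of 13 flanking genes in the table, 9 had a mean of at least 1 FPKM, with a median log2 ratio of -0.12. Among the 9, 0 were 1.5-fold higher or lower, where 2.56% and 6.61% of all such rows were. Below 0 were 7 of the 9, where 58.6% of all such rows were. All rows of chromosome 7, which carries *HOXA*, had a median log2 ratio of -0.04 (597 rows), chromosome 17 with *HOXB* -0.09 (729 rows), chromosome 12 with *HOXC* -0.04 (645 rows) and chromosome 2 with *HOXD* -0.05 (776 rows).

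Because HOX genes are packed, some share a listed locus with other genes. This held for 11 members at 5 loci, whereas 28 were alone at theirs. In the exon annotation used here, *HOXC4* and *HOXC6* shared 484 exonic bases. Every other pair of HOX genes at the same locus shared 0, although *HOXC4* and *HOXC5* have a common RefSeq start. For the pairs at 0, the annotation shows no exonic bases whose reads had to be divided between the HOX genes. Overlap with the *HOXA10-HOXA9* read-through was not tested. *HOXA5*, *HOXA6* and *HOXA7* were listed with *HOXA-AS3*, a noncoding antisense RNA, at chr7:27179983-27196296. *HOXA9* and *HOXA10* were listed with *HOXA10-HOXA9* and *MIR196B* at chr7:27202057-27219880. *HOXB5* and *HOXB6* were listed with *HOXB-AS3* at chr17:46667823-46683774. *HOXC4*, *HOXC5* and *HOXC6* were listed with *MIR615* at chr12:54410642-54449814, and *HOXD1* with *HAGLR* at chr2:177037924-177055635. Coordinates are hg19, 1-based.

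The sums show less movement than some of their members. The *HOXA5*, *HOXA6* and *HOXA7* sum was 17.5 FPKM with anti-*APC* siRNA and 21.8 FPKM untransfected (log2 -0.32). The *HOXA9* and *HOXA10* sum was 66.6 and 81.6 FPKM (log2 -0.29). The *HOXB5* and *HOXB6* sum was 17.6 and 17.2 FPKM (log2 0.03). *HOXA-AS3* stood at 2.60 and 2.87 FPKM, *HOXB-AS3* at 20.2 and 21.7 FPKM, above either HOX gene at its locus, the *HOXA10-HOXA9* read-through at 0.320 and 0.240 FPKM, and *HAGLR* at 0.0116 and 0.0991 FPKM. The kit does not mark strand, so reads in exonic bases shared by a gene and its antisense RNA cannot be assigned by strand. Shared bases were 1507 of *HOXA7* (73.5% of its exonic bases), 505 of *HOXA6* (39.3%), 425 of *HOXB6* (16.3%), 145 of *HOXD1* (7.69%) and 73 of *HOXB5* (3.93%). The 2 genes past 1.5-fold differ in this, since *HOXA4* is alone at its locus and *HOXA6* is not.

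**Figure D3:**
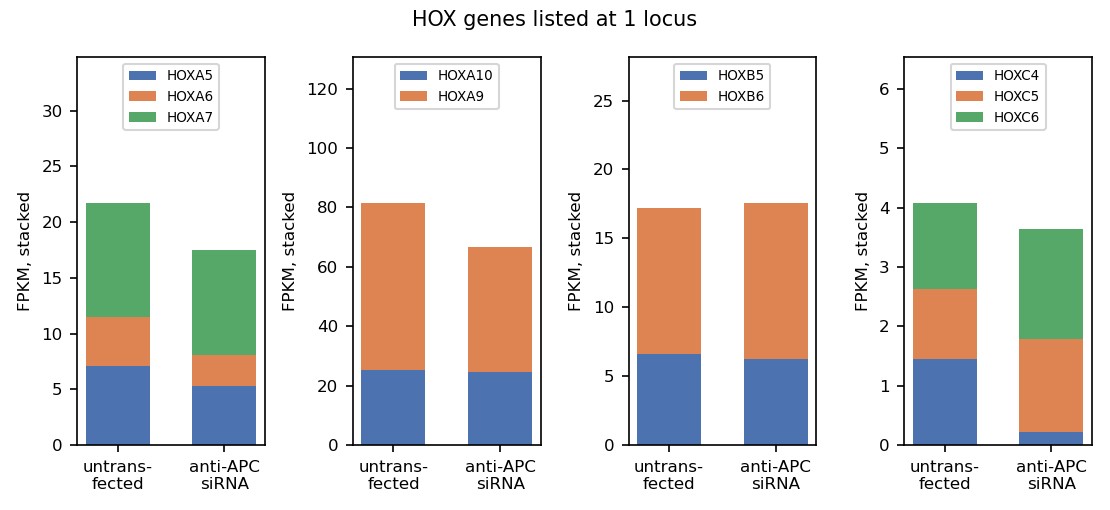
FPKM of HOX genes stacked at the 4 loci that list more than 1 HOX gene, untransfected on the left and anti-*APC* siRNA on the right of each panel, with separate axes from 0. The *HOXC4* segment shrinks from 1.45 to 0.222 FPKM while *HOXC5* and *HOXC6* grow, and the height of that stack goes from 4.09 to 3.63 FPKM.

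At the *HOXC* locus, *HOXC4* was 6.54-fold lower with anti-*APC* siRNA (log2 -2.71, interval -3.87 to -1.66), on 9 and 63 estimated reads. Its mean of 0.836 FPKM kept it out of the count above. *HOXC5* was at log2 0.41 (interval -0.17 to 0.98) and *HOXC6* at 0.34 (interval -0.19 to 0.84). Together the 3 stood at 3.63 and 4.09 FPKM (log2 -0.17), on 139 and 174 reads, with an interval of -0.52 to 0.14 from the reads. So 1 member was lower, 2 had values above 0, and the sum did not differ beyond counting error.
Exons of *HOXC4* and *HOXC6* transcripts overlap on the same strand by 484 bases, 17.5% of those of *HOXC4* and 21.7% of those of *HOXC6*, at the upstream end of the locus, just after the stretch printed for *HOXC4* and *HOXC5*. How the reads of this shared end were divided among the 3 genes was not tested. Across 1775 loci with more than 1 gene, 12.9% had a gene that moved at least 1.5-fold while the sum did not. A gene at least 4-fold lower while the sum moved less than 1.5-fold, the pattern of *HOXC4*, was found at 0.676%. The *HOXC4* locus is itself counted in both shares, and the 4-fold limit describes its own pattern. The shares are therefore descriptions and do not measure how unusual that locus is.

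**Figure D4:**
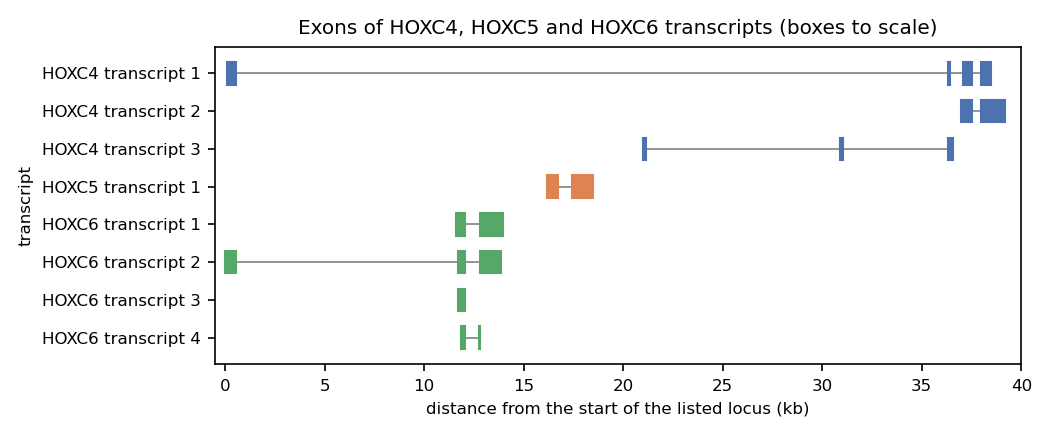
Exons (boxes, to scale) of annotated *HOXC4*, *HOXC5* and *HOXC6* transcripts along the listed locus, in kb from its start. The first exons of *HOXC4* transcript 1 and *HOXC6* transcript 2 lie at the same place at the left end, and the main exons of the 3 genes do not overlap.

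Among the partners of HOX proteins, 11 TALE homeodomain genes were in the table and 9 had a mean of at least 1 FPKM. Of these, 3 were at least 1.5-fold lower, where 6.61% of all rows with such a mean were. This list, like the others used here, was chosen with earlier results of these data known. The count is therefore a description and does not measure an enrichment. Among the 3 were *PBX3* and *PBX2*, whose proteins bind DNA together with HOX proteins. *PBX3* stood at 2.20 FPKM with anti-*APC* siRNA and 4.71 FPKM untransfected (log2 -1.10), and *PBX2* at 13.3 and 22.8 FPKM (log2 -0.78). *PBX2* was listed on an alternative contig with the status NOTEST, meaning that the authors' program did not test it. *PBX4* was at log2 -0.44. The 1 TALE gene at least 1.5-fold higher, where 2.56% of all such rows were, was *PKNOX1*, a partner of PBX proteins. It stood at 10.97 and 6.81 FPKM (log2 0.69). The most abundant was *TGIF1*, a repressor, at 104 and 101 FPKM, and *MEIS1* was at 0 in both. The median log2 ratio of the 9 was -0.20. The *PBX3* and *PBX2* differences were larger than that of any HOX gene past the filter.

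Upstream of the clusters, *CDX2*, the intestinal factor that acts on HOX genes, stood at 6.77 FPKM with anti-*APC* siRNA and 7.33 FPKM untransfected (log2 -0.12), and *CDX4* was at 0 in both. All 25 Polycomb genes listed had a mean of at least 1 FPKM. Of them, 0 were 1.5-fold higher or lower, where 2.56% and 6.61% of all such rows were, and their median log2 ratio was -0.04. The most abundant was *RBBP7*, a histone-binding subunit, at 109 and 113 FPKM, and *EZH2*, the methyltransferase, was at 58.1 and 56.9 FPKM. Of 14 Trithorax and H3K27 demethylase genes past the filter, 1 was at least 1.5-fold higher, where 2.56% of all such rows were. That gene was *KDM6B*, which removes methyl groups from H3 lysine 27, at 6.99 and 4.31 FPKM (log2 0.70). The median of the 14 was -0.02, and *PSIP1* was the most abundant at 67.0 and 68.8 FPKM.

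Besides *HOXA-AS3* and *HOXB-AS3*, given with their loci, *HOTAIRM1*, from the anterior end of *HOXA*, was the noncoding RNA of the clusters named here with a mean of at least 1 FPKM, at 4.61 with anti-*APC* siRNA and 5.50 untransfected (log2 -0.25). *HOTAIR*, from the *HOXC* cluster, was at 0.0372 and 0.0850 FPKM, and *HOTTIP*, from the posterior end of *HOXA*, at 0 and 0.0712 FPKM. *HOXA11-AS1* stood at 0.796 and 0.941 FPKM and *HOXD-AS2* at 0.649 and 0.815 FPKM.

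**Figure D5:**
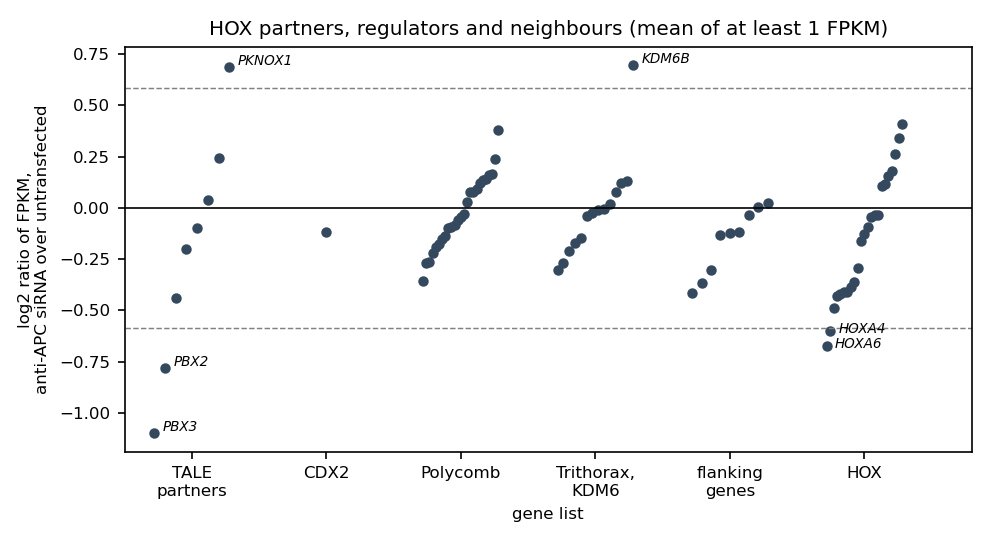
Log2 ratio of FPKM (anti-*APC* siRNA over untransfected) of genes with a mean of at least 1 FPKM in 5 gene lists and of the HOX genes, 1 point per gene reported here. Dashed lines mark 1.5-fold and named points lie past them: *PBX2* and *PBX3* low and *PKNOX1* high among the TALE partners, and *KDM6B* high among the Trithorax list.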

How the data were processed

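RNA of HCT-116 cells was sequenced from single-read TruSeq libraries, a kit that does not mark strand. The authors assigned reads with Cufflinks and Cuffdiff on hg19 per the labels (versions, aligner and annotation not given in the sources used here). The deposited FPKM values, 1 column per library, were used as they stand. The table's own comparison columns (natural log ratio, test statistic, p and q) were not used.

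The members and lists were chosen with earlier results of these data known. The naming rule took the HOX rows, with the genes at their loci and, of each list, genes at least 1.5-fold changed and the most abundant one. *EZH2*, *PBX4*, *HIBADH*, *SKAP2*, *SKAP1*, *CALCOCO1*, *SMUG1*, *CBX5*, *MTX2*, *KIAA1715* and the low noncoding RNAs fall outside this rule and were picked with their values in view. Results of 2 genes are not reported here, though counts, sums and medians include them. Calls needed FPKM above 0 in both libraries, a mean of at least 1 FPKM and 1.5-fold. Depth came from rows below 0.3 FPKM in both libraries: of 2622, 396 shared 1 log2 ratio within 0.01, and 101 with known lengths gave the depth. Estimated reads are FPKM times depth times the exonic length of the GENCODE 44 canonical transcript within the listed locus. For *HOXC11*, *HOXD4* and *HOXD11*, but not *HOXD3*, they equalled the smallest whole reads that the ratio allows. The FPKM file's starts are 0-based: start plus 1 was a transcript start in 39.7% of single-gene rows, and the start itself in 5.57%. The steps were tested on simulated data for this comparison, where 200 of 200 genes changed by 2-fold among 17489 were recovered. Those genes had at least 5 FPKM untransfected, with counting error only and no reads divided between genes at a locus. The simulation therefore did not test 1.5-fold calls on genes of lower level or at shared loci, such as *HOXA4* and *HOXA6*. Python 3.11.15, numpy 2.4.6, pandas 2.3.3, scipy 1.17.1 and matplotlib 3.10.9 were used. Alternatives were other pseudocounts, filters, folds, centring and locus sums.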

Additional observations from a re-analysis of the deposited data

How the results depend on the processing

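Most values kept their direction under the alternatives. The 2 HOX genes at least 1.5-fold lower became 0 with a pseudocount of 1 FPKM or a 2-fold limit, 1 with a pseudocount of 0.1 FPKM, 1 after centring on the median of all genes (*HOXA6* alone), 1 among genes alone at their locus (*HOXA4*), and 9 with a limit of 0.32 on the log2 scale. With every gene above 0 in both libraries they were 4. Counting loci in place of genes, chosen after seeing the data, gave 1. The count of higher genes, 0, became 2 with that limit and 3 with every gene above 0. A mean of at least 0.5 FPKM gave 3 lower genes, *HOXC4* being the third. At least 5 FPKM in both libraries left 11 of the 24 expressed genes. The log2 ratio of the *HOXA* sum was -0.20 without *HOXA9* and -0.25 after centring, an alternative chosen after seeing the data, and that of the *HOXD* sum was 0.47 without *HOXD8*, on few reads. No paired analysis was possible because each condition has 1 library. Depth limits the genes under 1 FPKM, and the lack of replicates limits the rest.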
